A study of Sus scrofa with 14 samples.

Results

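C1R, C1S, C2, C3, CFB and SERPING1 encode early components of the complement system and the plasma inhibitor of its first enzyme complex. They were chosen by name with earlier results of these data known. Shares of all probe sets given beside their counts are therefore a description, not a test. These 6 genes are among the 6765 that a porcine oligonucleotide array represents with a single symbol. The array carries 7 probe sets for them, 2 of them for CFB, and 6 of the 7 were bright enough to test. Values came from the endometrium, the inner lining of the uterus, of 14 crossbred cyclic gilts aged 8 to 10 months, with 1 array per gilt. All 4 groups were in pseudopregnancy, a state like early pregnancy without a conceptus. The control gilts had corn oil at the start of their second estrus and once more 24 hours later, and the estrogen gilts had estrogen at the same times. Endometrium was collected on day 13 or day 15 of pseudopregnancy after the uterus had been flushed with 20 mL of saline. Each treatment had 4 gilts at day 13 and 3 at day 15. The labels call them biological replicates. They describe the estrogen gilts as having a disrupted pseudopregnancy and these days as the time of conceptus attachment in pregnant pigs. The compound, dose and route of the estrogen are not given in the sources used here.

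Complement is a cascade of blood and tissue proteins that marks surfaces for uptake and draws in leukocytes. In the classical pathway C1q binds a target and the proteases C1r and C1s become active in turn. C1s then cleaves C4 and C2 to form the enzyme that splits C3. In the alternative pathway factor B, the product of CFB, supplies the protease that splits C3 on surfaces. C1 inhibitor, encoded by SERPING1, is a serpin that binds and inactivates C1r and C1s, and it also blocks plasma kallikrein and factor XII of the contact system. The liver makes most circulating complement, and macrophages, fibroblasts and epithelium, uterine epithelium included, also make several components. C1R and C1S are next to each other in the pig genome, as are C2 and CFB, the latter pair within the major histocompatibility complex.

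The arrays report signal intensities that had been scaled before deposition, and all values here are log2(signal + 16), so that a difference of 1 is a doubling for bright genes and understates the change of dim ones. A probe set was tested if its mean over the arrays was among the brighter 70%, at or above 6.35 on this scale. Of the 14 arrays, 3 stood apart in their median correlation with the others (0.860 to 0.885, against 0.927 to 0.952). These were replicate 1 of the control gilts at day 13, replicate 3 of the control gilts at day 15 and replicate 2 of the estrogen gilts at day 15. The day differences of the 6 genes are also given from the other 11, as are those of other genes where they bear on a count or moved. The 3' minus 5' log2 difference of GAPDH, a sign of RNA degradation, was 1.86 to 2.20 in the estrogen gilts at day 13. At day 15 it was 2.55, 1.36 and 2.84. It was 1.99 to 2.58 in the control gilts at day 13 and 2.39, 1.88 and 1.09 at day 15. As a check of the tissue, 11 of 11 measured epithelial markers and 5 of 6 measured genes of uterine gland secretion were above the dim limit. Of 7 measured hepatocyte markers only APOA1 was above it, and ALB, TTR, FGB, AMBP, APOB and CYP2E1 were dim. In whole tissue, more cells of a type and more RNA per cell cannot be told apart.

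C1R, the first protease of the classical pathway, had log2 values of 11.72, 10.66, 11.38 and 10.54 in the control gilts at day 13 and 11.79, 12.05 and 12.33 at day 15. In the estrogen gilts it had 10.77, 11.06, 10.73 and 11.06 at day 13 and 12.17, 11.84 and 12.74 at day 15. All 6 day 15 values lay above all 8 day 13 values, and the margin was narrow in the control gilts (11.72 against 11.79) and wide in the estrogen gilts (11.06 against 11.84).

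C1S, the protease that C1r activates and that cleaves C4 and C2, had 12.12, 11.53, 12.24 and 11.44 in the control gilts at day 13 and 12.66, 12.96 and 12.65 at day 15. After estrogen it had 11.45, 11.80, 11.23 and 11.76 at day 13 and 12.93, 12.43 and 13.26 at day 15. Here too every day 15 gilt lay above every day 13 gilt, with the highest day 13 value at 12.24 and the lowest day 15 value at 12.43. Such full separation with day 15 higher was found for 18 of the 16754 tested probe sets, a background of 0.107%, and for C1R and C1S among the 6 members. Without the 3 arrays that stand apart, 5 of the 6 members separated, CFB being the exception, against a background of 1.67%. After quantile normalization 1 member separated over all 14 arrays, and the share of all probe sets was not counted there.

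SERPING1, the inhibitor of both proteases, had 11.82, 10.69, 11.14 and 9.97 in the control gilts at day 13 and 11.59, 11.95 and 12.11 at day 15. After estrogen it had 10.76, 10.70, 10.40 and 10.80 at day 13 and 11.91, 11.21 and 12.06 at day 15. The estrogen groups did not overlap. The control groups overlapped through 1 gilt, day 13 replicate 1, whose array is one of the 3 that stand apart.

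C2, the C1s substrate that carries the protease of the classical C3 convertase, was dim. Its signals ran from 17.6 to 203.8 and its mean of 6.68 was just above the dim limit. It had 6.76, 7.02, 6.69 and 5.07 in the control gilts at day 13 and 7.39, 7.78 and 6.41 at day 15. After estrogen it had 6.04, 5.94, 5.37 and 6.42 at day 13 and 7.72, 7.15 and 7.77 at day 15. The estrogen groups were separate and the control groups overlapped through the lowest day 15 value, from the array of replicate 3 that stands apart.

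C3, the protein on which all complement pathways converge, had the widest range of the 6 tested member probe sets, 3.77 on the log2 scale. It had 12.57, 11.11, 10.995 and 9.69 in the control gilts at day 13 and 12.75, 13.00 and 10.62 at day 15. After estrogen it had 10.00, 10.83, 10.51 and 11.19 at day 13 and 13.32, 12.33 and 13.47 at day 15. The estrogen groups lay over a log2 unit apart. The control groups overlapped through day 15 replicate 3 alone, which lay below day 13 replicates 1, 2 and 3. Day 13 replicate 1, the highest of its group, lay below the other 2 day 15 values (12.57 against 12.75 and 13.00). Both arrays are among the 3 that stand apart.

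CFB, the alternative pathway protease, had 9.74, 7.71, 7.02 and 7.53 in the control gilts at day 13 and 8.28, 8.29 and 7.43 at day 15. After estrogen it had 7.74, 7.20, 6.26 and 8.48 at day 13 and 9.83, 8.80 and 8.66 at day 15. In the control gilts the day 13 value of replicate 1 was above all 3 day 15 values, whereas the estrogen groups were separate by a narrow margin (8.48 against 8.66). The other CFB probe set, whose mean of 6.21 was below the dim limit, was not tested. Its 4 group means ran from 5.85 to 6.47 with standard deviations of 0.58 to 1.34, and its day 15 values reached 6.62 against 7.91 at day 13. The 2 CFB probe sets had a correlation of 0.51 over the 14 arrays and 0.27 over the 11, so the pattern given for CFB is that of the brighter one.

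**Figure D1:**
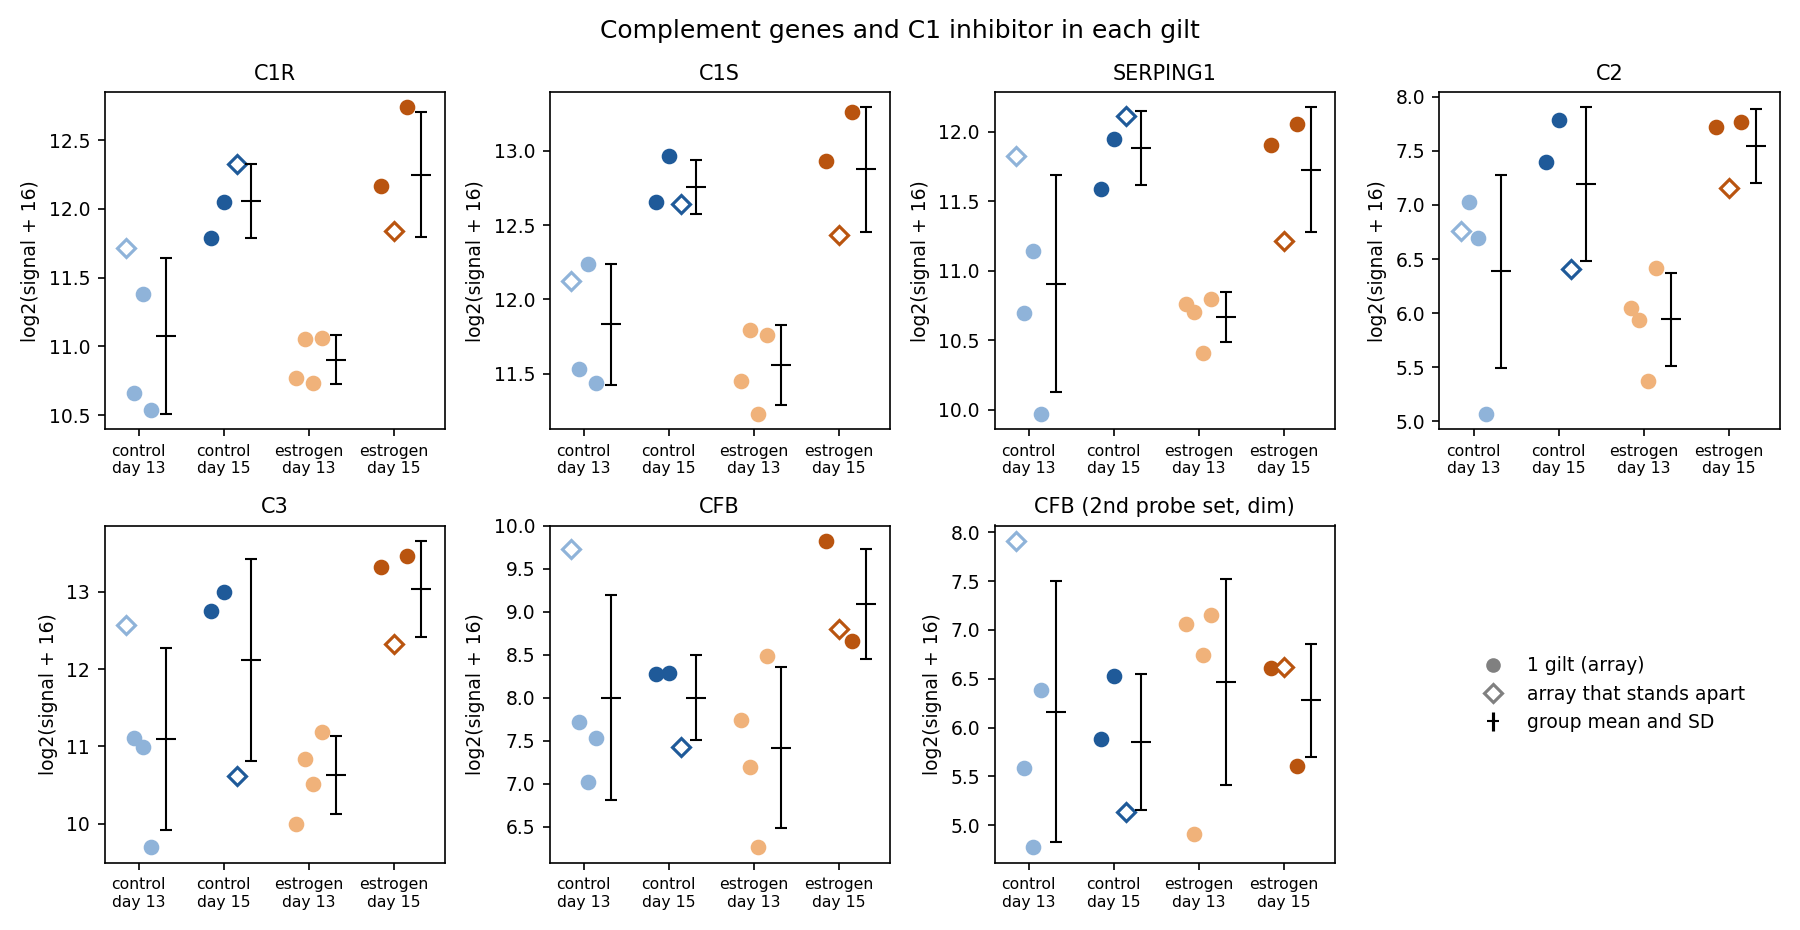
Log2(signal + 16) of each of the 7 probe sets (y axis, a separate scale in each panel) in the 4 groups (x axis). Each point is 1 gilt, open diamonds are the 3 arrays that stand apart, and black bars give the group mean and standard deviation; every C1R and C1S value at day 15 is above every value at day 13, and in the estrogen gilts this holds for all 6 tested probe sets.

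The first question of the design is how endometrium differed between day 13 and day 15, 2 days within the time of conceptus attachment. After estrogen all 6 genes were higher at day 15, from 2.09-fold for SERPING1 to 5.29-fold for C3. C1R, C1S and SERPING1 were 1.97-, 1.90- and 1.97-fold higher in the control gilts, and CFB did not differ in its mean (0.00 ± 0.60 SE). None of these passed the threshold over all arrays. In the 11 arrays without those that stand apart, C3, C1R, C1S and SERPING1 rose from day 13 to day 15 after estrogen. The median log2 difference of the 6 members was 0.95 in the control and 1.47 in the estrogen gilts, beside -0.02 and 0.02 over all tested probe sets.

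In the control gilts the log2 difference was 0.98 ± 0.29 (SE; 4 against 3 gilts) for C1R, 0.92 ± 0.25 for C1S and 0.98 ± 0.34 for SERPING1. It was 1.03 ± 0.63 for C3 and 0.81 ± 0.45 for C2, whose spread among gilts was wider. The adjusted p-values were 0.966 to 1 (limma over all 16754 probe sets with Benjamini-Hochberg adjustment), and 0 of 6 members passed 0.05, as did 0% of all probe sets. At an unadjusted p under 0.05, 3 members (C1R, C1S and SERPING1) were higher at day 15, against a background of 1.86%. The control groups did not overlap for 2 of 6 members, C1R and C1S, against 1.74% of all probe sets.

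In the estrogen gilts the log2 difference was 1.35 ± 0.29 (SE) for C1R, a 2.54-fold difference, and 1.31 ± 0.25 for C1S, a 2.49-fold difference, both with an adjusted p of 0.206 (limma). SERPING1 differed by 1.06 ± 0.34 (adjusted p = 0.413, limma), the least of the 6. C3 differed by 2.40 ± 0.63, with a 95% interval of 1.05 to 3.76 and an adjusted p of 0.278 (limma). C2 was 3.04-fold higher (1.60 ± 0.45, adjusted p = 0.32, limma) and CFB 3.19-fold higher (1.67 ± 0.60, adjusted p = 0.459, limma). No member and 0% of all probe sets passed the adjusted threshold. All 6 members were higher with an unadjusted p under 0.05, against a background of 4.77%, and for all 6 the groups did not overlap, against 7.96% of all probe sets.

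Averaged over both treatments, the day difference of C1S was 1.12 ± 0.17 (SE; adjusted p = 0.0656, limma) and that of C1R was 1.16 ± 0.20 (adjusted p = 0.0968, limma). These 2 genes came nearest to the threshold among the members. SERPING1 differed by 1.02 ± 0.24, C3 by 1.72 ± 0.45, C2 by 1.21 ± 0.32 and CFB by 0.84 ± 0.43, with adjusted p-values of 0.233 to 0.591 (limma). No member passed, and 1 probe set of all did, a background of 0.00597%. At an unadjusted p under 0.05, 5 of 6 members were higher, all but CFB, against 4.65% of all probe sets. Day 15 was above day 13 without overlap within both treatments for 2 of 6 members, against 0.137%.

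Without the 3 arrays that stand apart, C3 rose 6.77-fold after estrogen (2.76 ± 0.38 SE, adjusted p = 0.00905, limma; 4 against 2 gilts), with a 95% interval of 1.93 to 3.59. C1R rose 2.93-fold and C1S 2.90-fold (both adjusted p = 0.0131, limma), and SERPING1 rose 2.49-fold (adjusted p = 0.0349, limma). C2 was higher by 1.80 ± 0.47 and CFB by 1.82 ± 0.50, with adjusted p-values of 0.0925 and 0.104 (limma). The 4 of 6 members that passed stand beside a background of 0.776% called higher. Averaged over treatments, the same 4 genes rose, C3 by 2.52 ± 0.28, C1S and C1R by 1.31 ± 0.17 and 1.30 ± 0.18, and SERPING1 by 1.24 ± 0.19, against a background of 0.728%. In the control gilts, here 3 against 2, the C3 difference was 2.27 ± 0.40 in place of 1.03, and 0 members and 0% of all probe sets passed (lowest adjusted p of a member 0.182, limma). There 5 of 6 members, all but CFB, were higher with an unadjusted p under 0.05, against a background of 3.2%.

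The number of members called depended on single arrays. Leaving out control day 13 replicate 1 alone gave 2 calls after estrogen, C1R and C1S, beside 0.155% of all probe sets called higher. It gave 4 calls for the averaged day difference, those 2 with C3 and SERPING1, beside 0.388%. Leaving out control day 15 replicate 1 gave 1 call for the averaged difference, C1S, beside 0.0179%. With 1 probe set per gene there was also 1 call for it, beside 0.0519% of the genes. Array weights, which down-weight the 3 arrays, gave 3 calls after estrogen (C1R, C1S and C3), beside a background of 0.597%. They gave 5 for the averaged difference (all but CFB), beside 0.561%. A fit of the estrogen arrays alone also called C1R, C1S and C3 after estrogen, with adjusted p-values of 0.0399, 0.046 and 0.0288 (limma), beside a background of 0.286%.

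The RNA quality score averages the 3' minus 5' differences of GAPDH, actin and EF1A after each was standardised. It was 1.88, -0.76 and 1.44 in the estrogen gilts at day 15 and between -0.75 and 0.05 at day 13. With this score as a covariate, the day difference after estrogen was 1.23 ± 0.34 (SE) for C1R and 1.12 ± 0.27 for C1S. It was 1.64 ± 0.65 for C3, 1.17 ± 0.49 for C2, 1.39 ± 0.72 for CFB and 0.84 ± 0.40 for SERPING1. All 6 were smaller than without the covariate, and C3 by the most. No member passed with the covariate, and without the 3 arrays as well the C3 difference was 2.29 ± 0.86 (adjusted p = 0.668, limma). In those 11 arrays the covariate made C2 (1.26), C3 and SERPING1 (1.12) smaller. It made C1R (1.71), C1S (1.81) and CFB (2.02) larger. In the control gilts over all arrays, all 6 differences were larger with the covariate. They were 1.03 ± 0.30 for C1R, 1.01 ± 0.24 for C1S, 1.07 ± 0.35 for SERPING1, 1.00 ± 0.44 for C2, 1.36 ± 0.57 for C3 and 0.13 ± 0.63 for CFB.

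**Figure D2:**
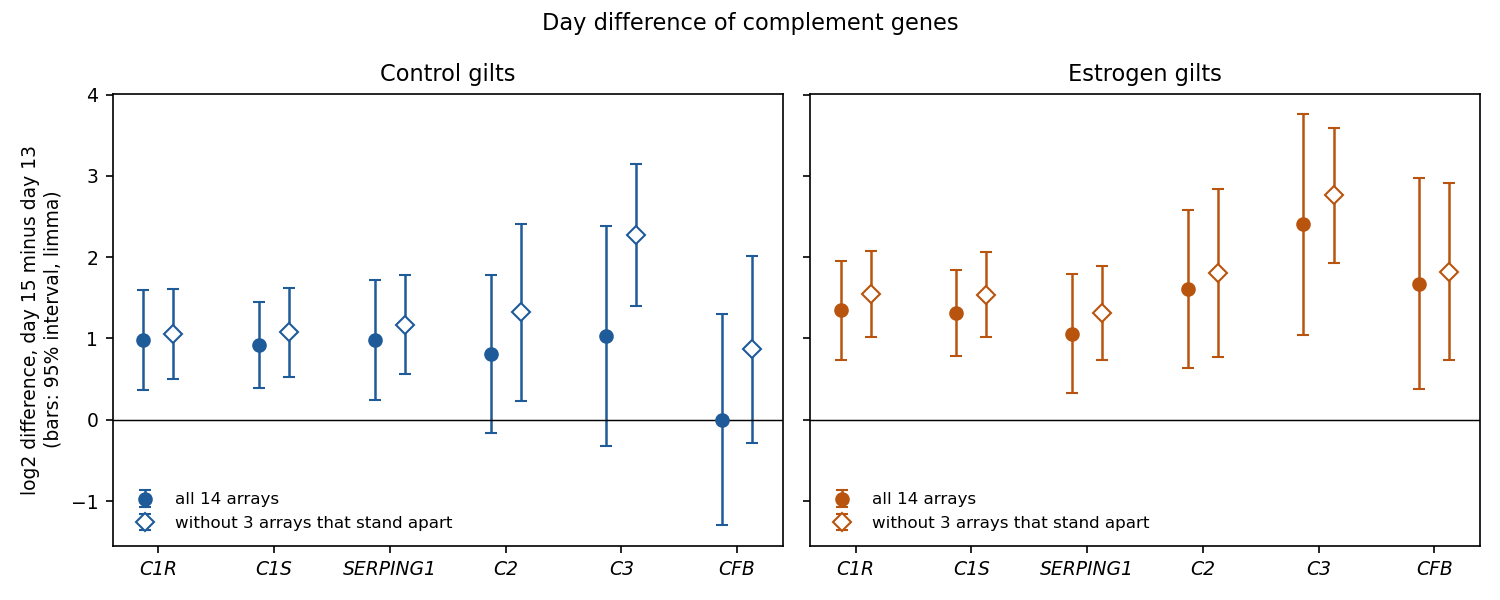
Log2 difference between day 15 and day 13 (y axis) of the 6 genes (x axis) in control gilts (left) and estrogen gilts (right). Points are limma estimates with 95% intervals, filled for all 14 arrays and open for the 11 without those that stand apart; the C3 estimate in the control gilts moved from 1.03 to 2.27, and CFB is the gene nearest 0 there.

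The second question is what the early estrogen did at each day. At day 13 all 6 genes had lower means in the estrogen than in the control gilts, from -0.17 ± 0.26 (SE) for C1R to -0.58 ± 0.56 for CFB. None had an unadjusted p under 0.05, and 0 of 6 members and 0% of all probe sets passed (adjusted p = 1 for each, limma). The control gilts varied more at that day. The standard deviation of C3 was 1.18 in the control and 0.51 in the estrogen gilts (n = 4 each), and that of SERPING1 was 0.78 and 0.18. Without control day 13 replicate 1, the differences of C1R, C3 and SERPING1 were 0.04, 0.03 and 0.07.

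At day 15 C3 was 1.89-fold higher (0.92 ± 0.67 SE) and CFB 2.13-fold higher (1.09 ± 0.65) in the estrogen gilts, and the 95% interval of each included 0 (-0.53 to 2.37 and -0.29 to 2.48). The other 4 genes differed by -0.16 to 0.35. No member and 0% of all probe sets passed (lowest adjusted p of a member 0.985, limma), and no member had an unadjusted p under 0.05. The CFB difference without the 3 arrays was 0.96 ± 0.58 and the C3 difference 0.52 ± 0.44. With the replicate number as a block, CFB alone had an unadjusted p under 0.05 (0.0419, adjusted p = 0.996, limma). Beside it, 301 of all 16754 probe sets were higher at that level. With the block its unadjusted p was 0.00806 without the 3 arrays and 0.0155 with array weights (adjusted p = 0.758 and 0.911, limma). Averaged over both days, 0 members and 0% of all probe sets differed between treatments.

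Whether the day difference was larger after estrogen was tested as an interaction. It was positive for all 6 genes, from 0.08 ± 0.48 (SE) for SERPING1 to 1.67 ± 0.85 for CFB (unadjusted p = 0.0707, limma), with 1.38 ± 0.89 for C3. No member and 0% of all probe sets passed (adjusted p = 0.99 to 0.998, limma). The larger day differences after estrogen are therefore not shown to differ from those in the control gilts. Without the 3 arrays the interaction of C3 was 0.49 ± 0.55 and that of CFB 0.96 ± 0.73. With the replicate number as a block, the interaction of CFB had an unadjusted p of 0.0221 (adjusted p = 0.997, limma). Beside it, 278 of all 16754 probe sets were positive with an unadjusted p under 0.05. With the block it was 0.0171 without the 3 arrays and 0.0128 with array weights (adjusted p = 0.838 and 0.958, limma).

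The members followed each other to different degrees over the gilts. C1R and C1S had a Pearson correlation of 0.96 over the 14 arrays (rho = 0.93), and C1R and SERPING1 had 0.94 (rho = 0.97; permutation test, adjusted p = 1e-04 for each of these 4 values). C2 and C3 had 0.90 (rho = 0.93; permutation test, adjusted p = 1e-04). CFB had the weakest ties, from 0.54 with C1R to 0.74 with C3. All 15 pairs were tested, and all had an adjusted p under 0.05 for Pearson's r (highest 0.047, permutation test). For Spearman's rho the highest was 0.063. Without the 2 gilts farthest from the median the correlations were 0.42 to 0.95. These values and their p-values include the difference between the days and groups, since the permutation ran over all 14 arrays. After the group means were taken out the correlations were 0.30 to 0.91, and these were not tested. Over the 11 arrays that do not stand apart they were then -0.22 to 0.95.

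Within day 13, all 15 pairs were positive over the 8 gilts, from 0.47 to 0.92. Within day 15 the 6 gilts gave -0.23 to 0.98. There C2 with C3 had 0.98, C1R with C1S 0.76, C1R with SERPING1 0.75 and C3 with CFB 0.735. C1S had 0.70 with SERPING1, 0.66 with C2 and 0.615 with C3, and SERPING1 with C3 had -0.07. None of the 15 pairs of day 15 had an adjusted p under 0.05 (lowest 0.056, exact permutation test). Of the 30 values within a day, C1R with SERPING1 and C1R with C1S at day 13 had an adjusted p under 0.05 (0.022 and 0.037, exact permutation test). The array of control day 15 replicate 3, which stands apart, had the highest C1R and SERPING1 of all control gilts (12.33 and 12.11) and the lowest C3 of its group (10.62). Over the 11 arrays without those that stand apart, the correlation of C1R with C3 was 0.94 in place of 0.79, and that of C3 with SERPING1 was 0.95 in place of 0.77. These include the day difference, and with the group means taken out they were 0.58 and 0.71. CFB then had -0.22 with C1R to 0.34 with C2.

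Differences between members within a gilt show how closely they kept step. The levels of different probe sets cannot be compared, so only changes in such a difference have a meaning. C1S minus C1R had a standard deviation of 0.19 over the 14 arrays, and C1R minus SERPING1 had 0.24. C3 minus C1R had 0.84. In the estrogen gilts C3 minus SERPING1 was -0.03 ± 0.50 (SD) in the 4 gilts of day 13 and 1.31 ± 0.17 (SD) in the 3 gilts of day 15, and these groups did not overlap (highest 0.39 at day 13, lowest 1.11 at day 15). The control gilts had 0.19 ± 0.48 and 0.24 ± 1.499, and the groups overlapped through day 15 replicate 3 (-1.49). The other 2 control gilts of day 15 had 1.16 and 1.05, above the 4 of day 13 (-0.28 to 0.75), so the shift was seen in both treatments apart from that array. From the 11 arrays the control means were 0.00 at day 13 and 1.10 at day 15, beside -0.03 and 1.41 after estrogen.

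**Figure D3:**
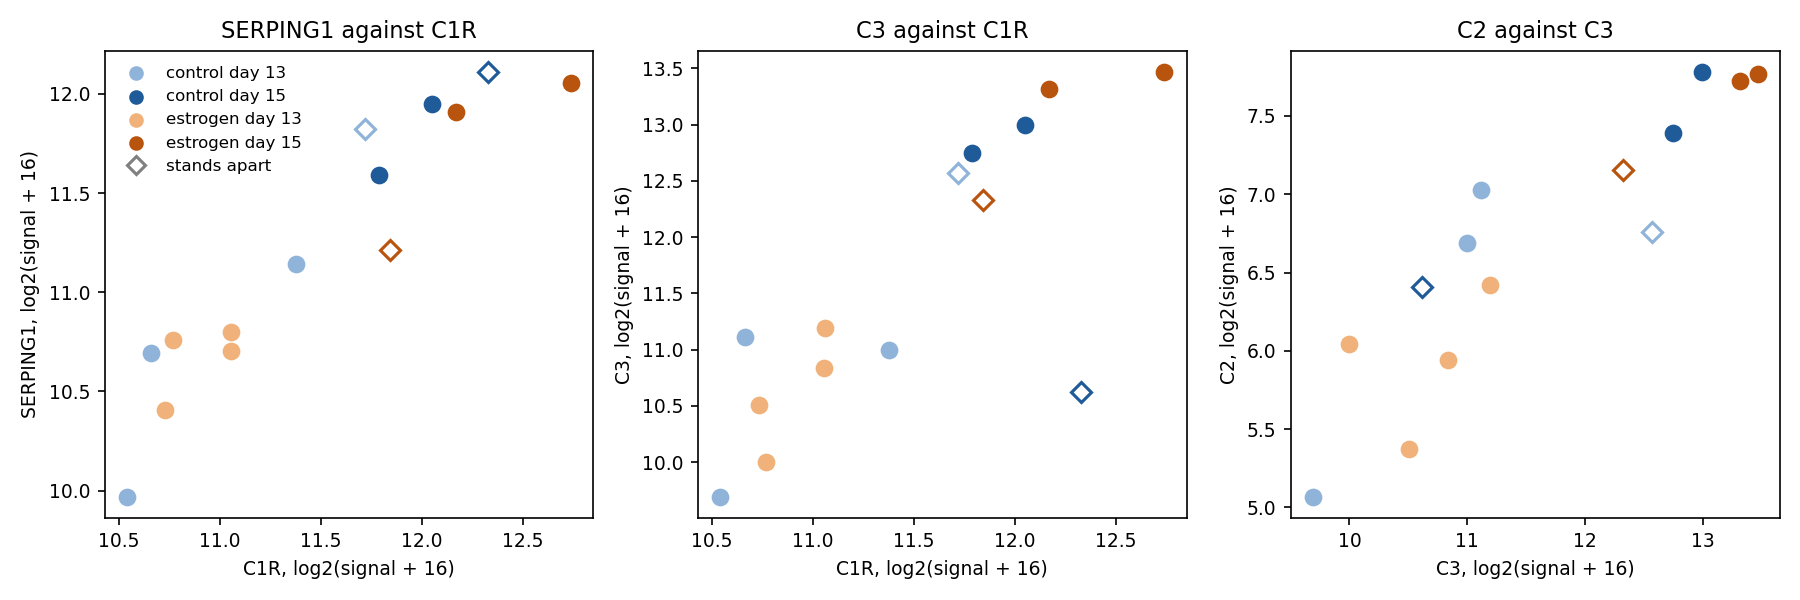
Log2(signal + 16) of 1 gene against another in the 14 gilts, for SERPING1 against C1R (left), C3 against C1R (middle) and C2 against C3 (right), coloured by group. Open diamonds are the 3 arrays that stand apart; in the middle panel the control day 15 array at 12.33 for C1R and 10.62 for C3 lies far off the line of the other gilts.

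The genes whose profiles were most like the members over the 14 arrays were ranked by Pearson correlation among 5785 named genes, as a description, since the arrays share their day and quality differences. After C1S and SERPING1, C1R was most like SLC11A1 (0.92), a metal transporter of macrophage vesicles, SLA-DMA (0.90), a class II antigen-loading chaperone, and LYVE1 (0.89), a hyaluronan receptor. C1S was most like C1R, then MRC1 (0.90), the macrophage mannose receptor, SERPING1, TYROBP (0.89), a signalling adaptor of myeloid cells, and SLC11A1 (0.88). C3 was most like TYROBP (0.96), GMFG (0.95), ARRB2 (0.95), CD40 (0.95) and CIITA (0.94), the class II transactivator.

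C2 was most like C3 and then LY86 (0.87), TYROBP (0.86), RPS12 (0.86), a ribosomal protein gene, and ARRB2 (0.85). CFB was most like DNASE1L1 (0.87), TOX3 (0.87), STARD7 (0.86) and MAN2B1 (0.86), followed by CIITA (0.86). SERPING1 was most like C1R and C1S, then FABP5 (0.88), SLC11A1 (0.87) and SLA-DMA (0.87). Against the mean of the 6 standardised profiles the leading genes were TYROBP (0.95), GMFG (0.93), IL2RG (0.91), SLC11A1 (0.91) and VDAC2 (0.91), then ARRB2 (0.90), SLA-DOA (0.90) and SLA-DMA (0.89). The lowest were WDR26 (-0.88), HEBP2 (-0.85) and CCDC91 (-0.84). Over the 11 arrays TYROBP, GMFG, VDAC2 and ARRB2 were again among the leading 8, now with C1QC (0.96), CIITA (0.95), JAK3 (0.94) and MRC1 (0.93).

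Of 54 symbols of other complement genes listed by role, some of them synonyms, 29 were on the array and 15 were bright enough to test. Over all 14 arrays none of the 15 passed the threshold in either treatment (limma, adjusted). At an unadjusted p under 0.05, 1 was higher at day 15 in the control gilts, beside the 1.86% of all probe sets. After estrogen 3 were higher, beside 4.77%, and 1 lower, beside 3.84%. The median log2 difference of the 15 was 0.24 in the control and 0.27 in the estrogen gilts, less than the 0.95 and 1.47 of the 6 members. When the 3 arrays were left out, 3 rose after estrogen, beside 0.776% of all probe sets, and 1 fell, beside 0.543%. In the control gilts none passed (limma, adjusted) and 4 were then higher with an unadjusted p under 0.05, beside 3.2%.

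Among the genes that start the classical and lectin pathways, 3 of 8 measured were tested and all 3 were higher at day 15 in both treatments. C1QC, a chain of the C1q recognition molecule, differed by 0.51 ± 0.53 (SE) in the control and 1.38 ± 0.53 in the estrogen gilts, and without the 3 arrays it rose by 1.63 ± 0.24 after estrogen (adjusted p = 0.0124, limma). Its difference in the control gilts was then 1.37 ± 0.25. C1QA, another C1q chain, differed by 0.44 ± 0.45 and 0.95 ± 0.45 over all arrays and by 1.15 ± 0.32 and 1.23 ± 0.30 over the 11. C4A, the other substrate of C1s, differed by 0.99 ± 0.42 and 0.80 ± 0.42, and by 0.76 ± 0.39 and 1.26 ± 0.37 over the 11. Near-identical C4 genes may share this probe set.

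Of the alternative and terminal components, 3 of 8 measured were tested, and none had an unadjusted p under 0.05 in either treatment over all arrays. CFD, the protease that cleaves factor B, differed by -0.22 ± 0.30 (SE) in the control and -0.11 ± 0.30 in the estrogen gilts. CFP, or properdin, which stabilises the alternative convertase, differed by -0.02 ± 0.29 and 0.27 ± 0.29. C8B of the membrane attack complex differed by -0.09 ± 0.39 and 0.54 ± 0.39. Over the 11 arrays these differences were -0.62 ± 0.29 and -0.31 ± 0.28 for CFD, 0.27 ± 0.24 and 0.60 ± 0.22 for CFP, and 0.26 and 0.54 for C8B.

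Of the regulators, 6 of 9 measured were tested. CLU, or clusterin, which binds terminal complexes in the fluid phase, differed by -0.11 ± 0.27 (SE) in the control gilts and 0.97 ± 0.27 after estrogen. Without the 3 arrays it rose by 1.12 ± 0.22 after estrogen (adjusted p = 0.0335, limma). Its control values were then 13.91, 13.34 and 13.10 at day 13 and 13.86 and 13.70 at day 15. CPN1, a carboxypeptidase that inactivates the anaphylatoxins, differed by -0.77 ± 0.37 and -1.48 ± 0.37. Without the 3 arrays it fell by 1.13 on the log2 scale after estrogen (adjusted p = 0.0349, limma). Its control values were then 7.66, 7.47 and 7.27 at day 13 and 7.29 and 7.03 at day 15. CD59, the membrane inhibitor of the attack complex, differed by -0.55 ± 0.26 after estrogen. C4BPA, CD46 and CD55, which limit the convertases, differed by 0.05, 0.10 and 0.04 after estrogen. Their control means were 9.07, 11.53 and 10.12 at day 13 and 9.86, 11.81 and 10.71 at day 15. Control day 15 replicate 3, which stands apart, had the highest CD46 and CD55 of its group (12.58 and 11.99). Over the 11 arrays C4BPA had 9.62, 9.16, 8.97 and 9.89 at day 13 and 10.16 and 9.49 at day 15 after estrogen.

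Of the receptors, 3 of 4 measured were tested. ITGB2, the beta chain of the leukocyte receptors for cleaved C3, differed by 0.25 ± 0.35 (SE) in the control and 1.63 ± 0.35 in the estrogen gilts. Without the 3 arrays it rose by 1.91 ± 0.28 after estrogen (adjusted p = 0.0124, limma). Its control values in these 11 arrays were 7.77, 7.20 and 7.23 at day 13 and 8.05 and 8.34 at day 15, also higher at day 15. VSIG4, a macrophage receptor for C3 fragments, differed by 0.24 ± 0.31 and 0.37 ± 0.31, and CD93 by 0.15 ± 0.35 and -0.48 ± 0.35. Over the 11 arrays VSIG4 differed by 0.72 ± 0.26 and 0.46 ± 0.24, and CD93 by -0.19 and -0.11.

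**Figure D4:**
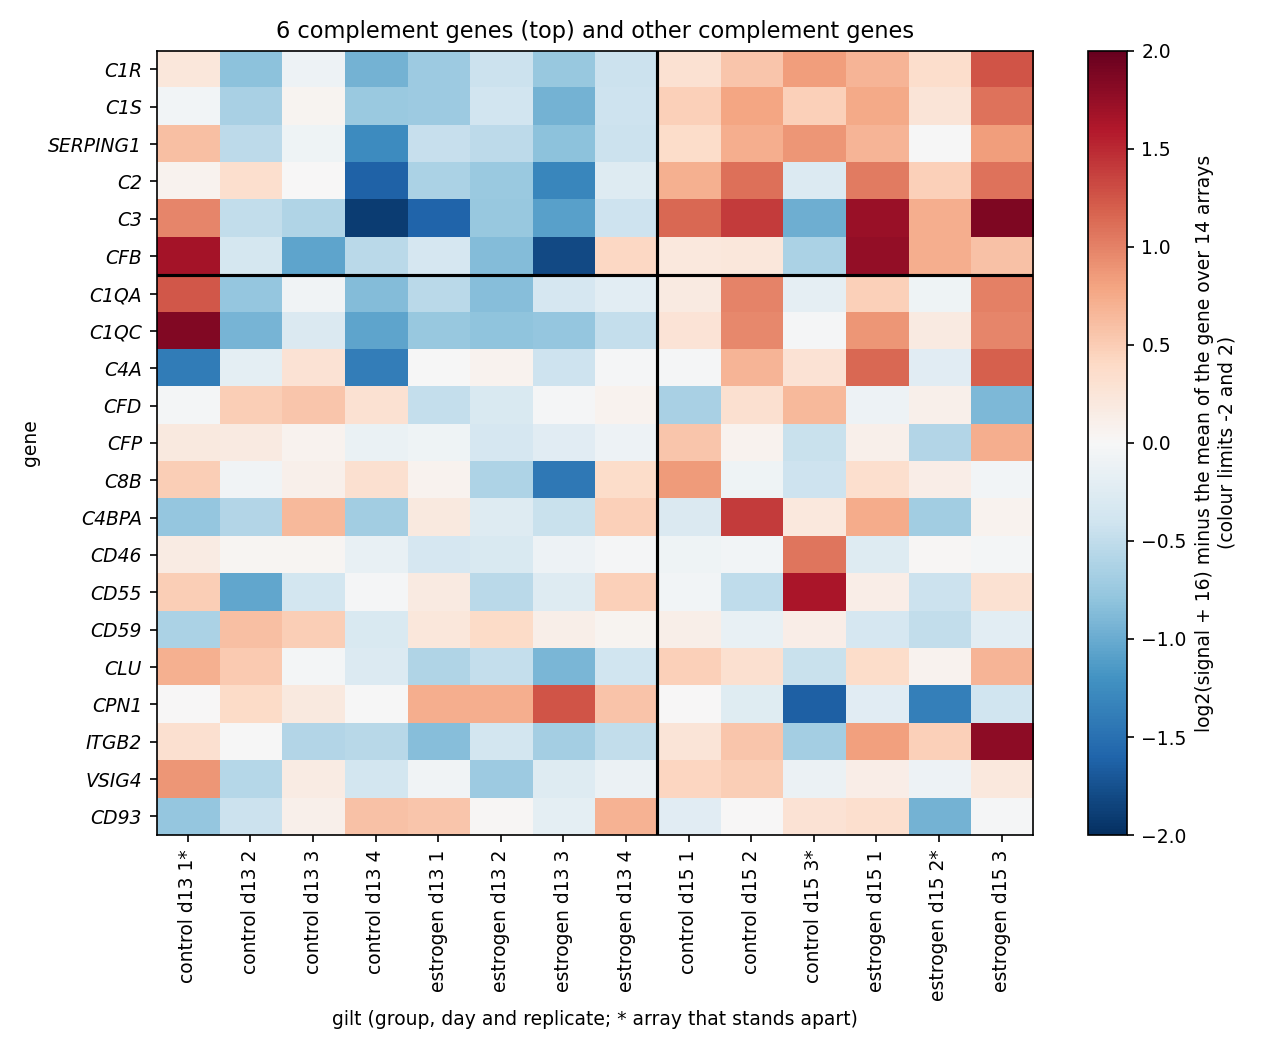
Heat map of the 6 members (above the black line) and the 15 other tested complement genes (rows) in the 14 gilts (columns, day 13 left and day 15 right of the black line; stars mark the 3 arrays that stand apart). Colour is log2(signal + 16) minus the mean of the gene over the 14 arrays, with limits at -2 and 2; the rows of C1R and C1S have their higher values at day 15, and CPN1 has its lower values there.

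Genes that drive complement transcription, such as cytokines, their receptors and transcription factors, were mixed. Of 17 tested, 11 were higher at day 15 in the control and 10 in the estrogen gilts, with median log2 differences of 0.10 and 0.08, and none passed over all arrays. CIITA, the class II transactivator, differed by 2.37 ± 0.59 (SE) after estrogen, IRF8 by 1.33 ± 0.38 and IRF1 by 1.17 ± 0.36. These 3 are interferon-responsive factors and were the ones with an unadjusted p under 0.05 there, beside 4.77% of all probe sets higher. Without the 3 arrays CIITA rose by 2.64 ± 0.35 and IRF8 by 1.60 ± 0.28 after estrogen (adjusted p = 0.00698 and 0.0213, limma), beside 0.776% of all probe sets. No probe set of all passed in the interaction, with or without the 3 arrays. These rises are therefore not shown to differ from the control gilts. IL1B differed by 0.41 ± 0.34, STAT3 by -0.11 ± 0.17, ESR1 by -0.11 ± 0.34 and PGR by -0.12 ± 0.48 after estrogen.

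Of 6 other protease inhibitors of plasma and tissue, none passed in either treatment. After estrogen A2M, or alpha-2-macroglobulin, differed by -1.97 ± 0.71 (SE), SERPINE2 by 1.27 ± 0.59 and SERPINF1 by 0.54 ± 0.27. Of the contact and fibrinolysis genes that encode targets of C1 inhibitor or related proteins, F12, PLAT and PLAU were tested and differed by 0.15 ± 0.39, 1.43 ± 1.197 and 0.38 ± 0.61. Of the liver-type plasma proteins 4 of 11 measured were tested, and APOA1, ITIH4, SAA2 and TF differed by -0.46 ± 0.20, -0.37 ± 0.25, 0.60 ± 0.28 and 0.12 ± 0.96 after estrogen. None of these passed the threshold over all arrays. Without the 3 arrays PLAT differed by 0.36 ± 0.21, TF by 1.26 ± 0.64 and A2M by -1.47 ± 0.70.

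Markers of macrophages and dendritic cells were higher at day 15 as well. Of 10 measured markers 9 were above the dim limit, and MARCO was not. Their summed signal was 1569 to 2020 in the estrogen gilts at day 13 and 3463 to 6142 at day 15, without overlap. It was 1426 to 5432 and 2751 to 5140 in the control gilts, and these ranges overlapped. Over all 14 arrays 8 of the 9 were higher at day 15 after estrogen, 7 of them with an unadjusted p under 0.05, beside the 4.77% of all probe sets, and their median log2 difference was 1.38. Among control gilts all 9 were higher, 3 with an unadjusted p under 0.05, beside 1.86%, and the median was 0.53. From the 11 arrays 6 of the 9 rose after estrogen (limma, adjusted), beside 0.776% of all probe sets, with a median of 1.63. There 8 rose in the averaged comparison, beside 0.728%. In the control gilts none passed over these arrays, 8 had an unadjusted p under 0.05, beside 3.2%, and the median was 1.31. Their summed signal in the control gilts was then 1426 to 2014 at day 13 and 3385 to 5140 at day 15, without overlap. MRC1 rose by 2.01 ± 0.24 (SE) averaged over treatments (adjusted p = 0.013, limma), the 1 probe set of all that passed there, and C1QA and C1QC belong to this list as well as to complement.

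Other cell types gave smaller median differences over the days. The summed signal of 9 measured stromal fibroblast markers was 27038 to 33601 at day 13 and 34216 to 39168 at day 15 after estrogen, also without overlap. The 8 tested had a median log2 difference of 0.09. The sum of 11 epithelial markers was 46632 to 49127 and 46476 to 52114, which overlapped. That of 7 measured endothelial markers was 4820 to 5300 and 5356 to 6267, without overlap. Lymphocyte markers were summed to 523 to 878 and 1003 to 2024, without overlap. CD3G, CD4, CD2 and CD79B were dim, and the 7 tested had a median log2 difference of 0.42. In the control gilts of the 11 arrays the lymphocyte sums (606 to 1034 and 1371 to 1538) and stromal sums (31069 to 35588 and 36347 to 38673) were also separate. The endothelial sums overlapped there (3783 to 6673 and 5546 to 6388). Separate sums were therefore not particular to macrophage markers. Of 4 measured neutrophil markers 1 was above the dim limit, and S100A8, S100A12 and ELANE were dim. The part of these cell types in the day differences of the 6 members was not tested.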

How the data were processed

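Total RNA from the endometrium of 14 gilts was biotin-labelled by a one-cycle kit and hybridised to Affymetrix porcine arrays, per the labels. The authors deposited a signal intensity for each probe set on each array, not log-transformed. The software, its version and the scaling target are not given in the sources used here. The intensities had been scaled before deposition, since each array had a 2% trimmed mean of 500.08 to 500.1, with medians of 177.4 to 217.1. The precision is limited by the number of arrays.

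Of 24123 probe sets, 188 controls were left out. Values were taken as log2(signal + 16), and the dimmest 30% by mean were dropped (under 6.35, a signal of 65.5), which left 16754. Symbols came from the platform's annotation: 10099 probe sets had 1 symbol, 198 several and 13826 none. All 7 member probe sets matched the pig RefSeq table (Sscrofa11.1), which was used only for names and neighbouring genes. The 4 groups were fitted together with limma 3.58.1 (R 4.3.3; lmFit, eBayes with trend) and p-values adjusted by Benjamini-Hochberg over all 16754 with a threshold of 0.05. Correlations were tested by permutation in Python 3.11.15 with numpy 2.4.6 and scipy 1.17.1 (100000 resamples, or all pairings within a day). The method was tested on simulated data.

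The members and gene lists were chosen with earlier results of these data known. The named genes are all member probe sets, the 3 genes of lowest p in each list's day comparisons or those past the threshold, and the genes of most similar profile (5 per member, 8 highest and 3 lowest for their mean); other list genes named here were chosen after their values were seen. Groups came from sample titles, and no 2 arrays held identical values. The labels do not say whether the replicates were separate in every step, so p-values measure the spread between these samples. Alternatives were no filter or a 50% filter, quantile normalization, median centring, pseudocounts of 1 and 64, no trend in eBayes, array weights, a fit of the compared groups alone, a replicate block, 1 probe set per gene, and each array left out. Leaving out the 3 arrays that stand apart, RNA quality as a covariate with and without them, and the block with them left out or with array weights, were chosen after the data were seen.

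Pairing by replicate number was checked by correlating how each array deviated from its group's mean. In estrogen against control at day 13, all 4 same-numbered pairs were over 0.1 (0.132 to 0.283). The differently numbered pairs there had -0.259 to 0.1, below every same-numbered pair. In each other comparison 1 of 3 same-numbered pairs was over 0.1. Differently numbered pairs reached 0.514 between treatments at day 15, and 0.353 and 0.269 between days in the control and estrogen gilts. The labels name no shared source.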

Additional observations from a re-analysis of the deposited data

Results flagged for a closer look

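C2 in control day 13 replicate 4 had a log2 value of 5.07, far from the other 3 gilts of its group (6.69 to 7.02). Its gap divided by the group's range was 0.8291, against a critical value of 0.829. This was 1 of 14 groups of 4 gilts tested over the 7 probe sets, and chance flags about 1 in 20 such groups. C2 is dim, and this array is not among the 3 that stand apart.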

How the results depend on the processing

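Over 30 alternatives, 0 members passed in the control day comparison, in the 3 comparisons of estrogen with control and in the interaction. With the replicate number as a block, 0 members passed in every comparison over the 14 arrays, where none had passed without it, so that fit had no call to change. The block was then added to fits that had calls, a choice made after the data were seen. With the block and without the 3 arrays 3 members passed after estrogen (C1R, C3 and CFB) and 3 for the averaged day difference (C1R, C1S and C3), in place of 4 and 4. Beside these, 67 and 83 of all 16754 probe sets were called higher. With the block and array weights 0 passed in place of 3 and 5 (lowest adjusted p of a member 0.122 and 0.0524, limma). There 0 and 34 of all 16754 probe sets were called higher. After estrogen the number of members called was 3 with only the groups compared, 3 with array weights and 4 without the 3 arrays, and 0 to 2 when arrays were left out in turn. For the averaged day difference it was 5 with array weights, 1 with 1 probe set per gene and 4 without the 3 arrays, and 0 to 4 when arrays were left out. Members with every day 15 gilt above every day 13 gilt numbered 1 after quantile normalization and 5 without the 3 arrays, and 2 to 3 when arrays were left out. The share of all probe sets was counted only for all 14 arrays and without the 3 arrays. The day differences of C1R, C1S, SERPING1, C2 and C3 were positive under every alternative in both treatments, as was that of CFB after estrogen. C2 had no value with the 50% filter.

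Of 1074 single-gene values, 39 changed sign, none of them called, and the cause was not tested. Estrogen against control at day 13, without the 3 arrays and then with the covariate too, gave 0.0425 and 0.0179 for C1R, 0.0333 and 0.106 for C3, and 0.0651 and 0.0953 for SERPING1. With the block and without the 3 arrays these were 0.1127, 0.1359 and 0.0703. Array weights gave 0.0646 for CFB there. Leaving out single arrays gave -0.35 to 0.0425 (C1R), -0.93 to 0.0333 (C3) and -0.55 to 0.0651 (SERPING1). At day 15 the covariate gave -0.11 for C1S and -0.15 for C2, and -0.31 for C2 without the 3 arrays as well. SERPING1 had 0.0529 with array weights, 0.21 without the 3 arrays, 0.0415 with the covariate too, 0.2024 with the block and without the 3 arrays, and 0.031 with the block and array weights. Leaving out single arrays gave -0.0508 to 0.40 (C1R), -0.0738 to 0.34 (C1S), -0.0389 to 0.65 (C2) and -0.32 to 0.10 (SERPING1). CFB over the days in the control gilts was -0.0335 with a pseudocount of 64, and -0.32 to 0.58 with arrays left out. The interaction was -0.078 for C2 with the covariate and without the 3 arrays, and -0.24 and -0.0538 for SERPING1 with the covariate, with and without the 3 arrays, with -0.22 to 0.40 as arrays were left out. C2 is dim, with a mean just above the limit for testing.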

Other observations

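The 18 probe sets with every day 15 gilt above every day 13 gilt, C1R and C1S among them, named 9 genes, and 7 carried no symbol. The other 7 named genes were chosen here after their values were seen. MRC1 and CD163, scavenging receptors of macrophages, had gaps of 0.67 and 0.47 on the log2 scale between the highest day 13 and the lowest day 15 gilt. GBP1, an interferon-induced guanylate-binding protein, was represented by 3 of the 18 probe sets, with gaps of 0.49, 0.30 and 0.10. The gap of C1S was 0.19 and that of C1R 0.07. ICAM2, an adhesion molecule of endothelium and leukocytes, had a gap of 0.10, STK26 and SH3BGRL3 had 0.15 and 0.16, and MDH2, the mitochondrial malate dehydrogenase, had 0.0027. A further 17 probe sets had every day 15 gilt below every day 13 gilt. Macrophage and interferon-induced genes are named among the 18 that were higher at day 15, beside the 2 complement proteases. The lists were not tested for enrichment.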
